A study of Mus musculus with 8 samples.

Results

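Microglia are the resident macrophages of the brain. The comparison described here is between the arrays numbered set 1 and the arrays numbered set 2 in a study of primary microglia from C57BL/6 mice. Set 1 holds 4 arrays, of cells given PBS, Fc, Ecrg4(71-132) or Ecrg4(133-148), and set 2 holds 4 arrays of the same 4 treatments, so all 8 of the 8 arrays in the series were used and were chosen by the set number in their titles alone. Every treatment lasted 3 h. The Fc fragment of an antibody, and the Fc-fused fragments of Ecrg4 (a secreted precursor protein) that carry residues 71 to 132 or 133 to 148, were given at 20 µg/ml, while the PBS cells received no protein. The labels name no genetic change, state no age and leave unsaid whether each set was a culture of its own, and the 4 arrays of a set may share a culture, so each p-value measures only the spread between these arrays.

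Microglia in the healthy brain carry the fractalkine receptor Cx3cr1, the Fc receptor-like protein Fcrls and the transcription factor Sall1, and depend on signalling through Csf1r, the receptor of CSF-1 and interleukin-34. In culture they lose part of this profile, and GM-CSF, a related growth factor, induces the integrin Itgax (CD11c) and the chitinase-like protein Chil3 in macrophages. Type I interferons act through a receptor on the cell surface and switch on a shared group of antiviral genes. Primary microglia are usually grown on or shaken off mixed glial cultures, in which astrocytes, oligodendrocyte precursors and fibroblasts are also present.

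RNA was hybridised to one-colour Agilent arrays. A level below is the log2 signal of a gene's brightest probe with the 75th percentile of the array set to 0, a difference is set 1 minus set 2 on the log2 scale, and arrays are listed in the order PBS, Fc, Ecrg4(71-132), Ecrg4(133-148). A gene was called at an adjusted p under 0.05 in limma with the treatment as a block and Benjamini-Hochberg adjustment over 19541 genes. Well above background were 25800 to 29439 probes on a set 1 array, against 24214 to 25986 on a set 2 array, and the 75th percentile of signal was 625.8 to 809.3 in set 1 and 494.6 to 611.9 in set 2. All arrays lay on 1 slide with 1 scan time, set 1 in column 1 and set 2 in column 2, so the set and the slide column cannot be told apart.

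Set 1 and set 2 differed across much of the transcriptome. The gene groups below come from 33 lists of 572 different genes, of which 511 were measured, 51 were not well above background throughout either set, and 10 had no probe under the listed name. In all, 5335 genes (27.3% of those tested) were called higher in set 1 and 6825 (34.9%) were called lower, and the median difference over all genes was -0.07, with quartiles at -0.42 and 0.31. More genes were called lower than higher, which 3 other scalings turned round (6400 higher and 5898 lower with quantile normalization). Calls of at least 2-fold numbered 2206 higher (11.3%) and 1578 lower (8.08%). At 8-fold or more there were 592 genes higher in set 1 and 124 lower. These counts include genes dim in 1 set: set 2 was not well above background on any array for 1051 genes, and set 1 for 62. With only probes well above background on all 8 arrays, calls of at least 2-fold turned round, to 990 higher and 1306 lower. The 4 arrays of set 1 and the 4 of set 2 did not overlap in level for 11456 genes (58.6%). The first principal component held 82.8% of the variance and separated the sets, with set 1 at -90.8 to -73.2 and set 2 at 76.5 to 84.4. Correlations across genes were 0.994 to 0.997 among set 1 arrays and 0.981 to 0.994 among set 2 arrays, against 0.926 to 0.947 between set 1 and set 2 arrays of the same treatment.

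**Figure D1:**
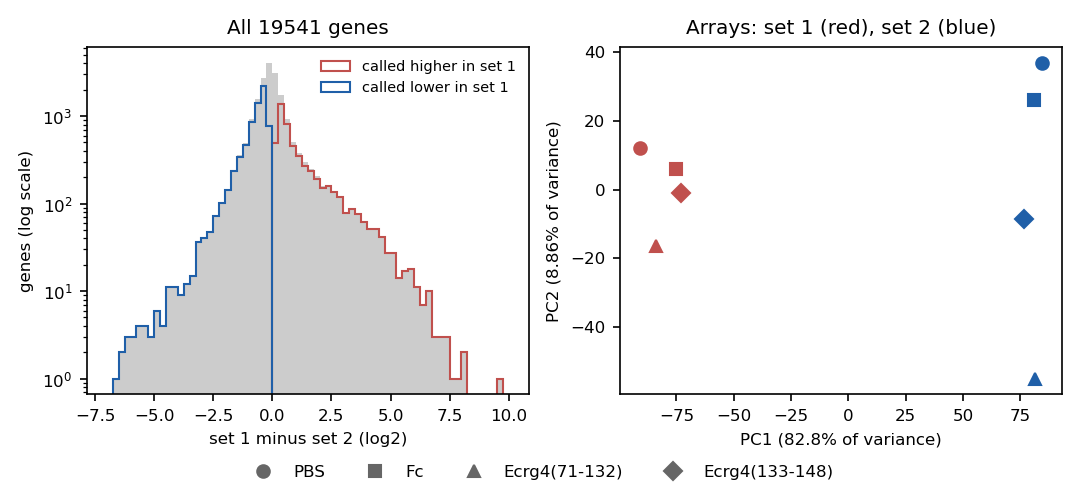
Left, histogram of the set 1 minus set 2 difference (log2) of all genes, with the number of genes on a log scale; grey bars are all genes and outlines are genes called higher or lower in set 1. Right, the 8 arrays on the first 2 principal components (82.8% and 8.86% of the variance), where set 1 (red) and set 2 (blue) lie at opposite ends of the first.

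The set differences of the 4 treatments were correlated across genes, but some gene groups changed sign between treatments. Differences within PBS, Fc, Ecrg4(71-132) and Ecrg4(133-148) pairs correlated at 0.876 to 0.924. The genes included some well above background in 1 set alone, which had to differ. In the same order, the median difference of the inflammatory genes was 1.02, 1.29, -0.54 and 0.07. That of the NF-kB pathway genes was 0.84, 0.40, -0.58 and -0.29. A change of sign in some treatment was seen in 62 called genes. Calling used the same differences and favours genes of constant sign, so this count does not measure agreement between treatments. Whether the set difference depended on the Ecrg4 fragments was tested as an interaction in limma, which called 0 genes at adjusted p under 0.05 (smallest adjusted p 0.448), with 2105 genes at an unadjusted p under 0.05. The test had 2 residual degrees of freedom, and the missing calls do not show that the sets responded alike.

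The macrophage markers separated the sets in opposite directions. Cx3cr1, the fractalkine receptor of microglia, was at 4.58, 4.71, 4.70 and 4.71 in set 1, against -3.25, -2.36, -0.74 and -1.45 in set 2. The 2 sets did not overlap, and set 1 was 98.7-fold higher (difference 6.62 ± 0.42, SE, adjusted p = 0.000385, limma). Fcrls averaged 3.64 ± 0.05 in set 1 and -0.41 ± 0.12 in set 2 (SD, n = 4 each), a 16.5-fold difference (adjusted p = 5.7e-05, limma). Itgax, the CD11c integrin of dendritic cells and activated microglia, was at 0.85, 0.99, 0.99 and 1.06 in set 1, against 5.32, 5.32, 5.48 and 5.43 in set 2, a difference of -4.41 ± 0.05 (SE). Chil3, a chitinase-like protein of stimulated macrophages, was at 5.18 to 5.33 in set 1 and 8.96 to 9.32 in set 2 (difference -3.88 ± 0.08, SE). Set 1 was thus high for the microglial pair and low for Itgax and Chil3 in every treatment, and set 2 was the reverse.

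**Figure D2:**
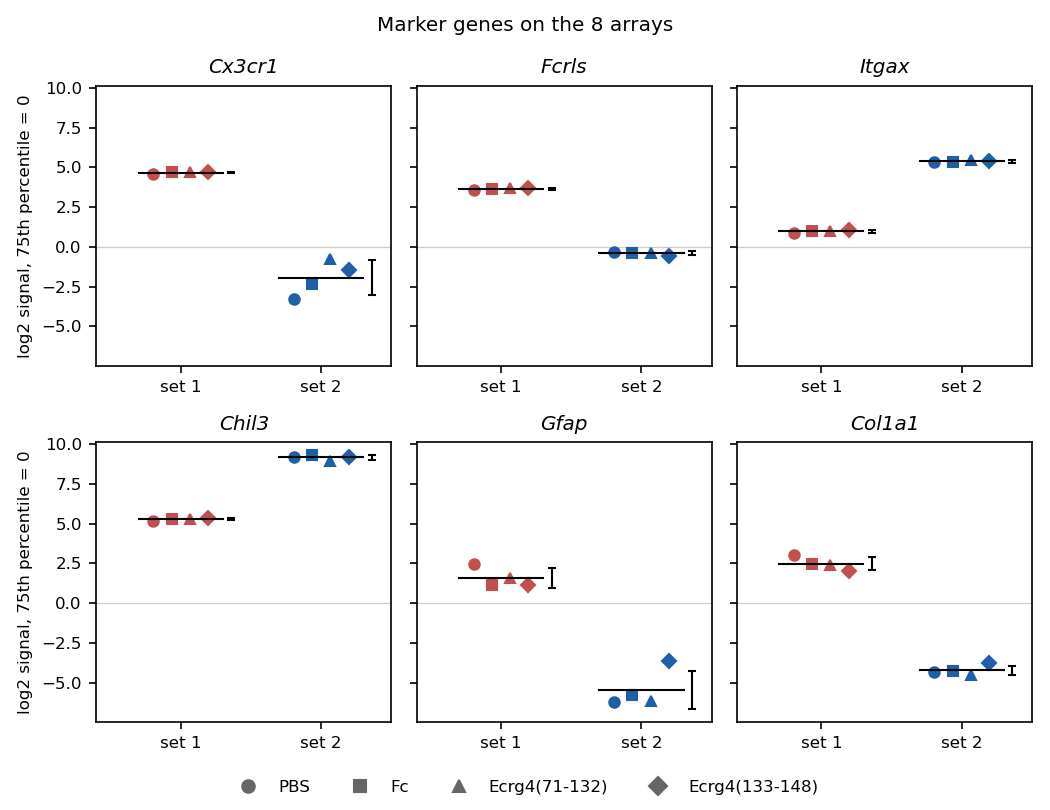
Level (log2 signal, 75th percentile of the array at 0) of 6 marker genes on each array, with set 1 left of set 2; symbols mark treatments, the line is the mean and the bar the SD of 4 arrays. Cx3cr1, Fcrls, Gfap and Col1a1 are higher in set 1 and Itgax and Chil3 are lower, with no overlap in any panel; Gfap and Col1a1 were well above background on 1 of 4 set 2 arrays.

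Of 28 measured homeostatic microglia genes, 17 were called higher in set 1 and 9 lower, beside 27.3% and 34.9% over all genes, with a median difference of 0.66. Of these, 7 were kept through set 1 alone, and genes kept that way had to differ. Over the 21 members well above background on all 8 arrays the median was 0.01. Among the higher genes, the purinergic receptor P2ry12 was at 0.75, 0.85, 0.60 and 0.64 in set 1, against -0.69, -0.68, -1.52 and -1.11 in set 2. Sall1, which maintains microglial identity in mice, was well above background on all 4 set 1 arrays and on 0 of 4 set 2 arrays. It was at least 2.19-fold higher in set 1 (means -3.41 and -6.12, adjusted p = 0.000363, limma). A p-value beside a bound, here and below, belongs to the difference of the measured means and does not test the bound. Tmem119, a microglial surface protein, was at -2.06 to -2.03 in set 1 and -4.67 to -3.82 in set 2, where it was well above background on 1 of 4 arrays. In bulk RNA, fewer cells of a type and less RNA per cell cannot be told apart.

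The members lower in set 1 included the phagocytic receptor tyrosine kinase Mertk (difference -1.98) and the transporter Slco2b1 (-1.99). Slco2b1 was at 0.26, 0.22, -0.47 and -0.12 in set 1, against 2.78, 2.50, 0.82 and 1.75 in set 2. Siglech, a sialic-acid-binding lectin, differed by -0.51 and the lipid receptor Trem2 by -0.37. Csf1r, the brightest member, was at 8.03, 8.16, 8.07 and 8.05 in set 1, against 8.08, 8.17, 7.90 and 8.13 in set 2. Its difference of 0.01 (95% interval -0.15 to 0.17) did not pass (adjusted p = 0.896, limma), and the sets overlapped. The list was therefore mixed in direction.

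**Figure D3:**
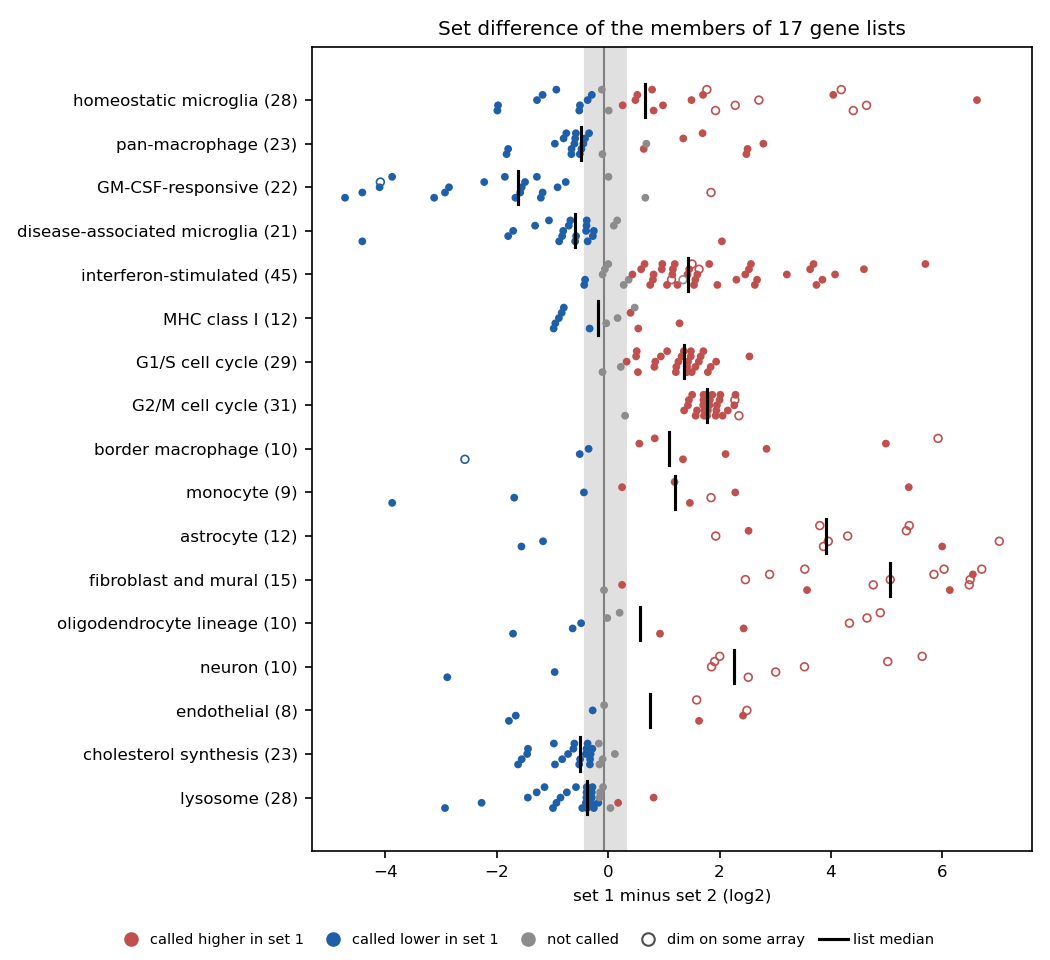
Difference between set 1 and set 2 (log2) of each measured member of 17 gene lists, with the number of members in brackets; the black bar is the list median, the grey band spans the quartiles of all genes (-0.42 to 0.31), and open circles are genes not well above background on some array. The G2/M genes lie at a median of 1.78 and the GM-CSF-responsive genes at -1.62, while the homeostatic microglia genes spread to both sides.

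Of the genes shared by macrophages of many tissues, more were lower than higher in set 1, and the chains of complement C1q were among the higher ones. Of 23 pan-macrophage genes, all well above background on every array, 6 were called higher and 15 lower (27.3% and 34.9% over all genes), with a median of -0.48. C1qb, a chain of the first complement component, was at 5.99, 6.10, 6.16 and 6.14 in set 1, against 3.28, 3.32, 3.31 and 3.32 in set 2 (6.9-fold, adjusted p = 5.7e-05, limma). C1qa (2.50) and C1qc (2.48), the other chains, differed by similar amounts, and Aif1, which encodes the microglial protein IBA1, by 1.70. Cybb, the catalytic subunit of the phagocyte NADPH oxidase, was at 2.52, 2.73, 2.87 and 2.55 in set 1, against 4.27, 4.38, 4.80 and 4.52 in set 2. Its partner Cyba, the brightest member, differed by -0.61, and the lysozyme Lyz2 by -1.80. Adgre1 (F4/80), Itgam (CD11b) and Ptprc (CD45), the surface proteins used to sort macrophages, differed by -0.58, -0.66 and -0.80.

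GM-CSF-responsive genes were lower in set 1. Of 22 measured, 19 were called lower and 1 higher, beside 34.9% lower and 27.3% higher over all genes, and the median was -1.62. The median was between -1.72 and -1.61 in each of the 4 treatments. Dcstamp, a membrane protein needed for fusion of macrophages into giant cells, was at -2.38, -2.21, -1.90 and -1.87 in set 1, against 2.52, 2.42, 2.94 and 2.66 in set 2 (26.5-fold lower in set 1, adjusted p = 5.7e-05, limma). Plet1 differed by -4.10, the fatty-acid-binding protein Fabp4 by -2.86, and the chemokine Ccl17 by -3.12. Ccl22, a chemokine for T cells, was not well above background on any set 1 array and was at least 3.66-fold lower in set 1 (means -7.04 and -2.95, adjusted p = 3.7e-05, limma). Plac8, the only member called higher, was at least 1.28-fold higher in set 1 (means -4.18 and -6.03, adjusted p = 0.00112, limma). This list was drawn up with earlier results of these data known.

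Both chains of the GM-CSF receptor were lower in set 1. Csf2ra, the ligand-binding chain of the GM-CSF receptor, was at 6.10, 6.23, 6.23 and 6.12 in set 1, against 8.03, 8.07, 8.01 and 8.03 in set 2 (difference -1.86 ± 0.05, SE). Csf2rb, the signalling chain, differed by -1.28. Csf1, the ligand of Csf1r, was higher in set 1, at 3.39, 3.59, 3.89 and 3.65 there, against 1.31, 1.31, 2.09 and 1.63 in set 2. Csf2, which encodes GM-CSF itself, was not kept: it was well above background on 3 of 4 set 1 arrays and, in set 2, on the Ecrg4 arrays alone. Of the 10 measured members of the list of colony-stimulating factors and receptors, 3 were called higher and 5 lower (27.3% and 34.9% over all genes).

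Chil4, a relative of Chil3, stood among the largest differences of all genes. It was at -2.19 to -1.98 in set 1 and 3.88 to 4.02 in set 2 (64.4-fold lower in set 1, adjusted p = 3.7e-05, limma). The 14 measured alternative-activation genes divided into 7 higher and 7 lower. The chemokine Ccl24 had the largest positive difference of them (4.60), at 1.60, 1.67, 2.42 and 2.14 there, against -2.57, -3.02, -2.50 and -2.49 in set 2. Of 21 genes of disease-associated microglia, a state described in mouse models of neurodegeneration, 18 were called lower in set 1 and 1 higher (34.9% and 27.3% over all genes), with a median of -0.59. Spp1 (osteopontin) differed by -0.88, the lipase Lpl by -1.71, Gpnmb by -0.81 and Apoe by -0.27, and Csf1 was the member called higher. Itgax and Lyz2 belong to this list as well as to those above.

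Tgfb and Smad genes, which act in the pathway that maintains microglia in vivo, were called in shares near the background: 6 of 18 were higher and 6 lower, beside 27.3% and 34.9% over all genes. Tgfb3, a ligand, was at least 10.4-fold higher in set 1 (means -0.95 and -4.43, adjusted p = 0.000421, limma), and the signal transducer Smad3 was at 0.78 to 1.26 in set 1 and -2.92 to -2.11 in set 2. The receptors Tgfbr1 (-0.93) and Tgfbr2 (-1.46) were lower in set 1. Tgfb3 was well above background on 0 of 4 set 2 arrays.

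Interferon-stimulated genes were higher in set 1. Of 50 listed genes, 45 were measured, and 37 of these were called higher and 2 lower, beside 27.3% and 34.9% over all genes, with 29 higher by at least 2-fold (11.3% over all genes). Their median difference was 1.43, also over the 41 members well above background on all 8 arrays. Promoters of the genes with the largest differences are shown because this group is controlled through a known motif, the interferon-stimulated response element. The 250 bases before the annotated start, from RefSeq on GRCm38.p6, are printed for Cxcl10, Oasl1 and Ifit1 (for a gene with several entries the first was used, and Usp18, which ranks between Oasl1 and Ifit1, is named only). Capitals mark matches to GAAANNGAA on either strand.
Cxcl10, chr5:92348890-92349139, minus strand: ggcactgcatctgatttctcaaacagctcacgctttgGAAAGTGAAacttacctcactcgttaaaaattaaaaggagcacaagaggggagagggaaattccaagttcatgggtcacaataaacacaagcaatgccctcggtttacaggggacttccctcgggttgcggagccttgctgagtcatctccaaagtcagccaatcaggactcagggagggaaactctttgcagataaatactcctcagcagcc
Oasl1, chr5:114922990-114923239, plus strand: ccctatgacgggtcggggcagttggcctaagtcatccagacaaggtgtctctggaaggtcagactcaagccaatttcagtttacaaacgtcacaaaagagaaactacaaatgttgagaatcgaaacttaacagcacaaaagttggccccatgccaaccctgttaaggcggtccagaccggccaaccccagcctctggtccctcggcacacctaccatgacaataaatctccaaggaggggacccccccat
Ifit1, chr19:34640639-34640888, plus strand: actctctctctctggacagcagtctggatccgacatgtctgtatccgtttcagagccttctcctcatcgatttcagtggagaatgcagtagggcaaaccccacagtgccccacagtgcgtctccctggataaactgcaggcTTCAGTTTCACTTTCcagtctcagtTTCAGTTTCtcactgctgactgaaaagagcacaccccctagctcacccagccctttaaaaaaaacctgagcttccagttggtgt
The motif was found once in the Cxcl10 window, 213 bases before the start, in 0 places in the Oasl1 window, and in 3 places in the Ifit1 window, on the minus strand from 109, 103 and 84 bases before the start, where the first 2 overlap. Of the 39 list members with an entry, 20 (51.3%) held it in this window, as did 7.16% of 27025 promoters in the table. A match describes letters and not binding.

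Cxcl10, a chemokine for T cells, was at 5.35, 6.60, 7.79 and 6.33 in set 1, against -0.48, -0.75, 3.13 and 1.38 in set 2. It was 51.9-fold higher in set 1 (difference 5.70 ± 0.49, SE, adjusted p = 0.000832, limma), and the lowest set 1 array lay above the highest of set 2. Oasl1, of the 2'-5' oligoadenylate synthetase family, was at 2.73, 3.99, 4.29 and 3.14 in set 1, against -1.18, -1.78, 0.01 and -1.26 in set 2. Usp18, the protease that removes ISG15 and dampens interferon receptor signalling, was at 3.21, 4.13, 4.73 and 3.66 in set 1, against 0.18, -0.53, 0.04 and -0.26 in set 2. Ifit1, which binds viral RNA, differed by 3.85, the antiviral enzyme Rsad2 by 3.74, the ubiquitin-like Isg15 by 2.57 and the transcription factor Irf7 by 2.63. All of these were higher in set 1 in each of the 4 treatments.

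The size of the interferon difference varied with treatment. The list median was 0.71 in the PBS pair, 1.74 in the Fc pair, 1.94 in the Ecrg4(71-132) pair and 1.02 in the Ecrg4(133-148) pair. In set 1 the median level of the list was 2.32 in PBS cells, 3.37 in Fc cells, 3.94 in Ecrg4(71-132) cells and 2.70 in Ecrg4(133-148) cells. In set 2 the same medians were 1.59, 1.02, 1.80 and 1.38. Each of these is 1 array, and the difference between treatments within a set has no replicate.

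**Figure D4:**
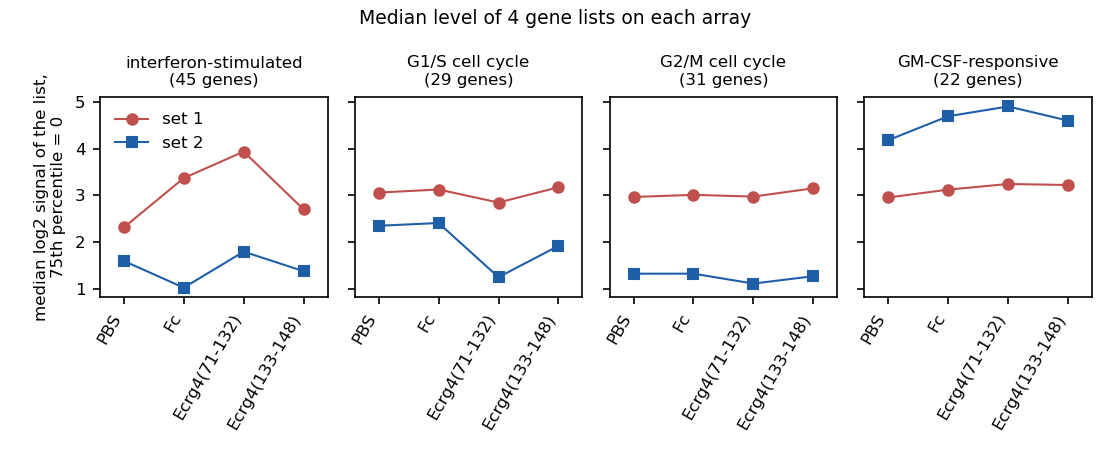
Median level (log2 signal, 75th percentile of the array at 0) of the measured members of 4 gene lists on each of the 8 arrays, by treatment, for set 1 (red circles) and set 2 (blue squares). Set 1 lies above set 2 in all treatments for the interferon-stimulated, G1/S and G2/M genes and below it for the GM-CSF-responsive genes; the interferon gap is narrowest in the PBS pair.

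Not all interferon-linked genes moved this way. Ifi27l2a was called lower in set 1 (difference -0.43), as was Lgals3bp, the brightest member (-0.41). Ifnb1, the gene of interferon beta, was at -3.64, -2.73, -0.29 and -1.64 in set 1, against -6.09, -5.65, -3.17 and -4.75 in set 2, where it was well above background on 1 of 4 arrays. Set 1 was higher within every treatment, although the 2 sets overlapped across treatments (difference 2.84 ± 0.12, SE, adjusted p = 0.000153, limma). With signal near background on set 2 arrays, the size of the Ifnb1 difference is not well determined. Of the 15 measured interferon and receptor genes, 7 were called higher and 4 lower (27.3% and 34.9% over all genes). The receptor chain Ifnar1 differed by 0.75, the kinase Jak1 by -0.55 and the RNA sensor Tlr7 by -0.56. Of 12 genes of MHC class I presentation, 3 were called higher and 6 lower: the peptide transporter Tap1 differed by 1.28, while H2-T23 (-0.98) and the light chain B2m (-0.33) were lower in set 1.

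Proliferation genes were higher in set 1. Of 31 measured G2/M genes, 30 were called higher and 0 lower, all 30 by at least 2-fold, and of 29 G1/S genes 27 were called higher and 0 lower, 20 of them by at least 2-fold. Over all genes 27.3% were called higher and 34.9% lower, and 11.3% were higher by at least 2-fold. The medians were 1.78 and 1.36, beside -0.07 over all genes. The G2/M median was between 1.72 and 1.87 in every treatment. Promoters of the pair of G2/M genes with the largest differences are shown because mitotic genes share the CCAAT box and the cell-cycle homology region. Capitals mark CCAAT and TTTGAA on either strand in the 250 bases before the RefSeq start on GRCm38.p6.
Ttk, chr9:83834439-83834688, plus strand: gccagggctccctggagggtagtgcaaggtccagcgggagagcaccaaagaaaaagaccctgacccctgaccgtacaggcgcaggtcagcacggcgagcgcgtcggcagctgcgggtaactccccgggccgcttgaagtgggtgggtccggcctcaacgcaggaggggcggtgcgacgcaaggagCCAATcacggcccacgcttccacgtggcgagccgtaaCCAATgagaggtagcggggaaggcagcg
Cdc20, chr4:118437344-118437593, minus strand: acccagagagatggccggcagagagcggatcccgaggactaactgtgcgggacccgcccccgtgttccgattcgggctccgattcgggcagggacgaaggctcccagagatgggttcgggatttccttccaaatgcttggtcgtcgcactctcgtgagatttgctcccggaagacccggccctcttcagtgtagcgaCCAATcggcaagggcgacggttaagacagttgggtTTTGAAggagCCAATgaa
CCAAT was found in 2 places in the Ttk window, 65 and 28 bases before the start, and in 2 places in the Cdc20 window, 53 and 8 bases before it. TTTGAA was found in the Cdc20 window alone, 18 bases before the start, and did not overlap CCAAT. Of 26 G2/M list members with an entry, 22 (84.6%) held CCAAT and 9 (34.6%) held TTTGAA, against 34.5% and 16.3% of all promoters in the table.

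Ttk, a spindle checkpoint kinase, was at -1.61, -1.59, -1.94 and -1.52 in set 1 and was not well above background on any set 2 array, and was therefore at least 5.03-fold higher in set 1 (means -1.66 and -4.01, adjusted p = 0.00013, limma). Cdc20, an activator of the anaphase-promoting complex, was at 4.57, 4.63, 4.47 and 4.57 in set 1, against 2.34, 2.42, 2.13 and 2.20 in set 2 (4.88-fold). Birc5 (survivin), the brightest G2/M member, was at 6.24 to 6.34 in set 1 and 4.23 to 4.73 in set 2. Mki67, the gene of the Ki-67 antigen, was at 5.74 to 5.88 in set 1 and 4.30 to 4.58 in set 2. The checkpoint kinase Bub1b, the member not called, overlapped between sets (difference 0.30, adjusted p = 0.0512, limma).

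Among G1/S genes, the replicative helicase subunit Mcm5 was at 4.09, 4.19, 3.99 and 4.14 in set 1, against 2.45, 2.46, 2.02 and 2.32 in set 2. It differed by 1.79 and the sliding clamp Pcna, the brightest member, by 0.50. Cdt1, a licensing factor, was not called (difference -0.10, adjusted p = 0.397, limma). The inhibitors did not move together. Cdkn2a, the locus of the inhibitor p16 and of ARF, was at 1.36, 1.51, 1.51 and 1.46 in set 1, against 5.51, 5.52, 5.30 and 5.45 in set 2, and was 15.9-fold lower in set 1 (adjusted p = 5.7e-05, limma). The D-type cyclin Ccnd2 (-1.74) and the antiproliferative gene Btg1 (-1.66) were also lower, while Cdkn1c, which encodes p57, was at least 7.56-fold higher in set 1 (means -1.11 and -4.06, adjusted p = 0.000377, limma). Of 16 genes of this list, 7 were called higher and 6 lower (27.3% and 34.9% over all genes).

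Most measured astrocyte and fibroblast markers were higher in set 1, and their part in the results above was not tested. Gfap, the intermediate filament of astrocytes, was at 2.43, 1.14, 1.59 and 1.11 in set 1, against -6.23, -5.80, -6.13 and -3.66 in set 2, and was well above background on 1 of 4 set 2 arrays (difference 7.02 ± 0.67, SE, adjusted p = 0.00113, limma). Col1a1, a chain of type I collagen, was at 3.03, 2.46, 2.40 and 2.02 in set 1, against -4.33, -4.29, -4.51 and -3.79 in set 2, likewise well above background on 1 of 4 set 2 arrays (difference 6.71 ± 0.27, SE, adjusted p = 0.000135, limma). On the other 3 set 2 arrays neither was well above background, so the size of these differences is not well determined. Gfap and Col1a1 were therefore at or near background in set 2 and plainly measured in set 1. In set 1 both were highest in the PBS array.

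Of 15 listed astrocyte genes, 12 were measured, 10 called higher and 2 lower (27.3% and 34.9% over all genes), with a median of 3.91. Of these, 8 were kept through set 1 alone, and the 4 members well above background on all 8 arrays had a median of 0.68. Sox9, an astrocyte transcription factor, was at least 15-fold higher in set 1 (means -0.64 and -5.99, adjusted p = 0.000265, limma). The lower pair was Aldoc, the brightest member (-1.56), and Aldh1l1 (-1.17). The summed signal of the list was 41.9 to 70.6 times the array's 75th percentile in set 1 and 72.8 to 77.1 times in set 2. Aldoc, at 4.28 to 4.58 in set 1 and 5.91 to 5.97 in set 2, weighs most in this sum outside the set 1 PBS array. There Clu, at 4.66, weighs more.

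Of 18 fibroblast and mural genes, 15 were measured, 14 called higher and 0 lower (27.3% and 34.9% over all genes). Their median was 5.07, and 10 were kept through set 1 alone. The 5 members well above background on all 8 arrays had a median of 3.57. Sparc, a matrix glycoprotein, was at 6.46, 5.81, 6.03 and 5.50 in set 1, against -1.16, -1.14, -1.55 and 1.44 in set 2 (93.8-fold, difference 6.55 ± 0.68, SE). Decorin (Dcn), a matrix proteoglycan, differed by 6.50 and was well above background on 2 of 4 set 2 arrays. Biglycan (Bgn) was not called (-0.07), and fibronectin (Fn1), which macrophages also make, differed by only 0.25. The summed signal was 415.2 to 475.2 times the 75th percentile in set 1 and 255.6 to 307.0 times in set 2. Fn1, at 8.30 to 8.51 in set 1 and 7.99 to 8.25 in set 2, weighs most in this sum. In set 2 it makes up nearly all of it, so the sums say little about fibroblasts.

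**Figure D5:**
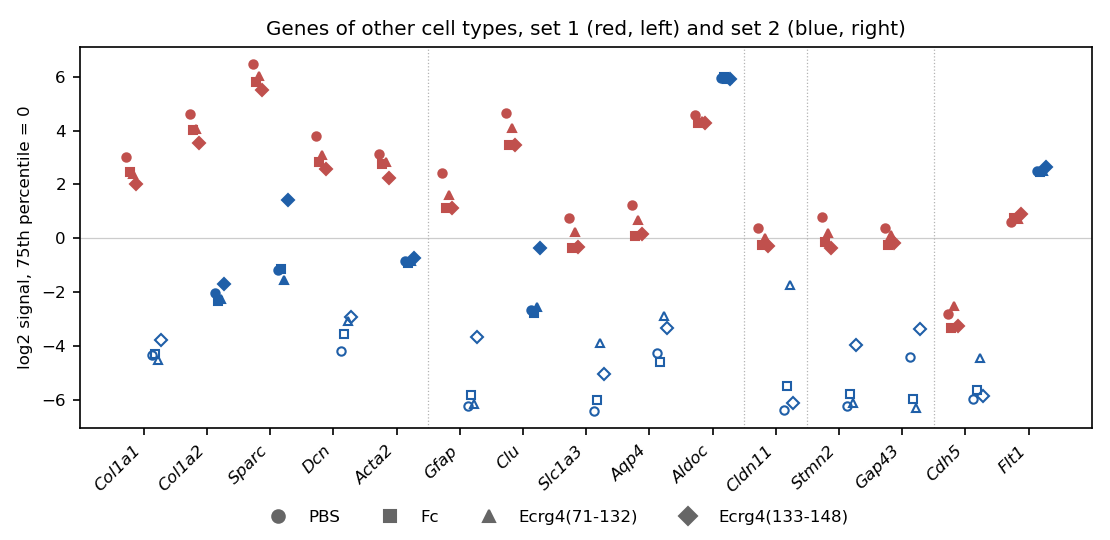
Level (log2 signal, 75th percentile of the array at 0) of genes of fibroblasts and mural cells, astrocytes, oligodendrocytes, neurons and endothelium (dotted lines part the groups) on each array, set 1 left and set 2 right; symbols mark treatments and open symbols mark sets in which the gene was not well above background on all 4 arrays. Col1a1 to Clu are higher in set 1, Aldoc and Flt1 are lower, and the Ecrg4(133-148) array of set 2 is its highest for Sparc, Gfap and Clu.

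Within set 2, the Ecrg4(133-148) array was higher than the other 3 for several of these genes. Sparc reached 1.44 there, Clu (clusterin) -0.36 and the processing enzyme Cpe 0.30, against at most -1.14, -2.53 and -1.97 on the other set 2 arrays. Without the Ecrg4(133-148) pair the difference was 7.38 for Sparc, 6.73 for Clu and 6.88 for Cpe, in place of 6.55, 6.00 and 6.12.

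Neuronal, oligodendrocyte and endothelial lists were mixed. The shares over all genes were 27.3% called higher and 34.9% called lower. Of 10 measured neuronal genes 8 were called higher in set 1, all 8 kept through set 1 alone, and 2 lower. Stmn2, a growth cone protein, was at least 21.6-fold higher in set 1 (means 0.12 and -5.52, adjusted p = 0.00149, limma), while the synaptic genes Syn1 (-2.89) and Snap25 (-0.96) were lower. Of 10 oligodendrocyte genes 5 were called higher and 3 lower. Cldn11, a tight junction protein of myelin, differed by 4.89 and was well above background on 1 of 4 set 2 arrays. The brightest probe of the myelin gene Mbp differed by -0.64, and 1 of its 3 probes by 0.58. Of 8 endothelial genes 4 were called higher and 3 lower. The cadherin Cdh5 was at least 2.96-fold higher in set 1 (means -2.98 and -5.47, adjusted p = 0.000814, limma) and Flt1, a VEGF receptor, was lower (-1.78).

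Other myeloid cells gave no single direction. Of 10 border macrophage genes, which mark macrophages of the meninges and vessels, 7 were called higher in set 1 and 3 lower. Over all genes 27.3% were called higher and 34.9% lower. Lyve1, a hyaluronan receptor, was at -0.20, -0.19, -0.20 and -0.08 in set 1 and well above background on no set 2 array, and so was at least 20.7-fold higher in set 1 (means -0.17 and -6.09, adjusted p = 4.4e-05, limma). F13a1, a coagulation factor subunit, was at 1.78 to 1.93 in set 1 and -3.29 to -3.02 in set 2. Pf4 (-0.35) and Mrc1 (-0.51), both bright in all arrays, were lower in set 1. Of 9 monocyte genes 6 were called higher and 3 lower. The chemokine receptor Ccr2 was at -0.59, -0.77, -1.16 and -0.74 in set 1, against -1.84, -2.08, -2.99 and -2.23 in set 2 (2.77-fold).

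Of 6 measured dendritic cell genes, 2 were called higher in set 1 and 3 lower (27.3% and 34.9% over all genes). Of the 6, 3 were kept through set 1 alone and 1 through set 2 alone, and 2 were well above background on all 8 arrays. Clec9a, a receptor for dead cells on cross-presenting dendritic cells, was at -5.72 to -4.68 in set 1, where it was well above background on 1 of 4 arrays, and at 0.70 to 1.45 in set 2 (difference -6.35 ± 0.07, SE, adjusted p = 3.7e-05, limma). With signal near background on set 1 arrays, the size of this difference is not well determined. Batf3, a transcription factor of the same cells, differed by -1.61. Fscn1 was among the members called higher in set 1, and differed by 3.14 on the Ecrg4 arrays alone. Flt3 was not kept. Of the neutrophil genes 5 of 11 were measured, 1 called higher and 2 lower, among them Mmp8 (-1.76). Of the lymphocyte genes 3 of 10 were measured, Cd3e, Cd4 and Nkg7, each well above background on all 8 arrays. All 3 were called lower by small amounts (Nkg7 differed by -0.62). Cd8a and Cd3g were well above background on 0 of 8 arrays.

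Of 11 genes of MHC class II and costimulation, 5 were called higher and 4 lower (27.3% and 34.9% over all genes). The chain H2-Aa was at least 3.9-fold higher in set 1 (means -2.58 and -5.90, adjusted p = 0.000104, limma), and H2-Eb1 was at 0.47, 0.63, 0.65 and 0.73 in set 1, against -3.10, -3.12, -1.18 and -2.55 in set 2. The peptide-loading genes went the other way, with H2-DMb1 at 2.72 to 2.88 in set 1 and 4.53 to 4.66 in set 2.

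Lysosomal and sterol genes were lower in set 1 by small amounts. Of 28 lysosomal genes, all well above background on every array, 22 were called lower and 2 higher (beside 34.9% and 27.3% over all genes), with a median of -0.39 and 5 lower by at least 2-fold. Atp6v0d2, a proton pump subunit of osteoclasts that is also in the GM-CSF-responsive list, lay between 3.96 and 4.17 in set 1, against 6.84 to 7.08 in set 2. The collagen-degrading protease Ctsk differed by -2.27. The aspartic protease Ctsd, the brightest member, differed by -0.38 (adjusted p = 0.0218, limma).

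Of 23 genes of cholesterol synthesis and its control, 19 were called lower in set 1 and 0 higher (34.9% and 27.3% over all genes), with a median of -0.50 and treatment medians between -0.72 and -0.36. Dhcr7, which makes the last step to cholesterol, was at 0.08, 0.17, 0.12 and 0.40 in set 1, against 1.88, 1.75, 1.66 and 1.95 in set 2 (3.07-fold lower in set 1, adjusted p = 0.000131, limma). Fdps, an earlier enzyme, was not called (0.12). Among 15 LXR target and lipid storage genes 5 were called higher and 9 lower: the desaturase Scd1 differed by 2.33 and the scavenger receptor Cd36 by -1.77. Of 22 glycolysis and hypoxia genes 8 were called higher, 1 lower and 13 were not called, and the prolyl hydroxylase Egln3 differed most (2.08).

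With treatments pooled, most inflammatory genes overlapped between the sets. Of 19 measured cytokine and chemokine genes, 6 were called higher and 3 lower (27.3% and 34.9% over all genes), and 10 were not called. The arrays of the 2 sets overlapped for 16 of them, whereas they did not overlap for 58.6% of all genes. The list's median level ran from 1.16 to 3.72 over the treatments of set 1 and from -0.34 to 5.43 over those of set 2. Overlap across such ranges does not show that the sets were alike. The list median was 1.02 in the PBS pair, 1.29 in the Fc pair, -0.54 in the Ecrg4(71-132) pair and 0.07 in the Ecrg4(133-148) pair. Cxcl1, a neutrophil chemokine, was at -0.55, -1.24, -0.34 and -1.98 in set 1, against -6.37, -5.96, -1.17 and -2.66 in set 2, where it was well above background on 2 of 4 arrays, and was not called (adjusted p = 0.0623, limma). Set 1 was higher in every pair, and some alternatives called Cxcl1 higher. Among them were normexp background correction (difference 1.46, adjusted p = 0.035, limma) and the PBS and Fc arrays alone (adjusted p = 0.0122, limma). Ccl2, a monocyte chemokine, was higher in set 1 by 1.35 and the cytokine Il18 was lower (-1.81). Of 19 NF-kB pathway genes 1 was called higher and 4 lower. Its inhibitor and target Nfkbia was at 6.36, 6.69, 7.10 and 6.83 in set 1, against 5.31, 6.20, 7.38 and 6.99 in set 2.

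Of 15 immediate-early genes 7 were called higher in set 1 and 4 lower (27.3% and 34.9% over all genes). The nuclear receptor Nr4a1 was at 3.04, 2.80, 2.72 and 2.53 in set 1, against -0.73, -1.08, -0.31 and -0.52 in set 2 (10.8-fold), and the zinc finger factor Egr2 was lower in set 1 (-2.44). Of 9 heat shock genes 5 were called higher and 1 lower. Hspb1, a small heat shock protein of stressed cells, astrocytes and muscle, was 44.2-fold higher in set 1, at 2.58 to 3.25 there and -2.99 to -1.66 in set 2.

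Among genes with signal well above background on each of the 8 arrays, the 10 most increased in set 1 included Cx3cr1, Sparc, Col1a2, Cpe, Clu, Myl9 (a contractile light chain), Cxcl10, Hspb1 and the adaptor Grap, between 98.7-fold and 34.4-fold. The 10 most decreased were Vsig8, Chil4, Rufy4, Clec1b (CLEC-2, the podoplanin receptor), Csprs, Dcstamp, C130026I21Rik, Stac2, Itgax and the carboxylesterase Ces2b. Vsig8 was at -2.13, -1.91, -1.61 and -1.49 in set 1, against 4.76, 4.71, 4.69 and 4.76 in set 2, a 91.5-fold difference (adjusted p = 5.7e-05, limma). Clec1b was at -1.43 to -1.31 in set 1 and 3.52 to 3.65 in set 2.

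In 1051 genes set 2 was not well above background on any array, and in 62 genes set 1 was not. The largest in set 1 were genes of smooth muscle, matrix and glia: Cnn1 (calponin) was at least 85.1-fold higher in set 1 (means 1.87 and -6.15, adjusted p = 7.7e-05, limma), Mgp (matrix Gla protein) at least 67.4-fold, Bcan (brevican, of brain matrix) at least 61.0-fold, Igfbp5 at least 47.6-fold and Ptn (pleiotrophin) at least 41.1-fold. The adjusted p of Bcan, 0.000225, was the highest of the 5. In set 2 they were Csn2 (beta-casein), at least 37.7-fold lower in set 1 (means -5.70 and 0.41, adjusted p = 3.7e-05, limma), Col24a1 at least 23.8-fold, Greb1l at least 17.8-fold, Cbln1 at least 14.9-fold and the fatty acid transporter Slc27a6 at least 14.2-fold, the highest adjusted p being that of Col24a1, 0.00025.

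Sex-linked genes show whether both sets held cells of both sexes. Of 4 measured, 1 was called higher and 1 lower, beside 27.3% and 34.9% over all genes. Eif2s3y, on the Y chromosome, was at 2.53, 2.67, 2.72 and 2.72 in set 1, against 2.35, 2.41, 2.62 and 2.46 in set 2, so both sets held RNA of male cells. Xist, the RNA of the inactive X chromosome, was at 0.10, -1.28, -1.22 and -1.10 in set 1, against 0.14, 0.17, 0.04 and -0.07 in set 2. The set 1 PBS array lay with the set 2 arrays for Xist, and the other 3 set 1 arrays lay lower (difference -0.95, adjusted p = 0.0287, limma).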

How the data were processed

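Total RNA of mouse microglia was labelled with Cy3 and hybridised to one-colour arrays, per the labels' protocols. The spot intensity in the deposited scanner files is linear and background-subtracted, and the submitters' processing notes name Agilent Feature Extraction 11.0.1.1. The authors' deposited table is on a log2 scale. In each of its 8 columns it equalled log2 of the scanner signal less a constant (correlation 1, column medians -4.47 to -4.20), whose origin is not stated in the sources used here. It served as an alternative.

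Signals were averaged over the spots of a probe, taken to log2 and scaled to the 75th percentile of non-control spots of their array. No spot was saturated, and 104 probes with every spot outlying on some array were left out. RefSeq accessions in a GRCm38.p6 gene table named 28026 of the 55681 probes, and 27655 kept the name on the array. The array was designed on mm9, and no probe positions are printed. A probe was kept where it was well above background on all 4 arrays of at least 1 set (25648 probes), and the brightest represented each of 19541 genes (13231 with a symbol).

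Limma 3.58.1 in R 4.3.3 fitted all 8 arrays with terms for treatment and set, leaving 3 residual degrees of freedom, and p-values were adjusted by Benjamini-Hochberg. Treatment is the block, and pairs the set 1 and set 2 array of the same label. Where a set lay below "well above background" on all of its arrays, only a bound is given, written "at least". For it, each dim array counted with its own signal or, if higher, with the lowest signal of any probe well above background there. The p-value beside a bound comes from the fit to the signals as measured, so it does not test the bound. Gene lists were described by counts and medians without a test. The number of arrays limits precision. The fit was tested on simulated data.

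The comparison, the lists and the naming rule were chosen with earlier results of these data known. The rule names 6 markers, the 10 largest differences each way with signal on all 8 arrays, 5 bounds each way, and the largest and brightest members of each list. Other genes were chosen after their values were seen, and some named by the rule are not reported here. Alternatives covered background correction, scaling, filters, probe rule, block, moderation, thresholds, the deposited table and arrays left out.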

Additional observations from a re-analysis of the deposited data

Results flagged for a closer look

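In 214 groups of 4 arrays (107 named genes in each set), 18 held an array whose gap to its nearest neighbour, as a share of the group's range, exceeded Dixon's 95% critical value. Chance alone flags about 1 in 20 groups. Each value below is that share, and no cause was tested.

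In set 1 the PBS array was the lowest of 4 for Cx3cr1 (0.916), Chil3 (0.933) and Pf4 (0.884), and the highest for Xist (0.87). The Ecrg4(133-148) array of set 1 was the highest for Lyve1 (0.928) and Lpl (0.839) and the lowest for C130026I21Rik (0.887) and Snap25 (0.875).

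In set 2 the Ecrg4(133-148) array was the highest for the glial and mesenchymal genes Sparc (0.862), Cpe (0.896), Clu (0.905) and Gfap (0.832), and for Flt1 (0.843). The Ecrg4(71-132) array of set 2 was the lowest for Nrros (0.87) and H2-DMb1 (0.831). The Fc array of set 2 was the lowest for Ccl24 (0.836) and the highest for Fdps (0.878), and its PBS array was the highest for Lgals3bp (0.874).

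Nfkbia, an inhibitor and target of NF-kB, was higher in set 1 in both control pairs (by 1.05 with PBS and 0.48 with Fc) and lower in set 1 in both Ecrg4 pairs (by -0.28 with Ecrg4(71-132) and -0.16 with Ecrg4(133-148)). The fragment pairs minus the control pairs came to -0.984, and the interaction in limma did not pass (adjusted p = 0.452).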

How the results depend on the processing

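Of the 33 list medians, 24 kept their sign under the alternatives tried and 9 did not. The TGF-beta, NF-kB and inflammatory medians changed sign by less than the SD over the treatment pairs, and the other 6 by more under at least 1 alternative. The alternative-activation median was -0.0099 with normexp and -0.34 without the filter on dim probes. The endothelial median was -0.58 without that filter, and with only probes well above background on all 8 arrays the endothelial, neuron and oligodendrocyte medians were -0.17, -1.93 and -0.016. The median of interferons and their receptors was 0.077 with normexp and 0.083 with quantile normalization, and the sex-linked median was 0.0056 without the Ecrg4(71-132) pair and 0.10 with PBS and Fc arrays only. Calls were 6400 higher and 5898 lower in set 1 with quantile normalization, 5726 and 5295 with median scaling, and 6099 and 5998 with the 75th percentile over probes detected on all arrays, against 5335 and 6825. With normexp background correction 1395 genes were higher by at least 2-fold in set 1, and the astrocyte and fibroblast medians were 1.95 and 3.10. The pan-macrophage median was -0.39 with quantile normalization, -0.41 with median scaling (where the G2/M median was 1.85) and -0.42 with that percentile. Without the filter on dim probes 13581 genes were called lower, 3085 by at least 2-fold, and the fibroblast median was 4.17. With only probes well above background on all 8 arrays, 990 genes were higher and 1306 lower by at least 2-fold. The homeostatic, astrocyte and fibroblast medians were then 0.0098, 0.68 and 3.57, over fewer genes. With PBS and Fc arrays only, the homeostatic median was 0.45. With Ecrg4 arrays only, a choice made after seeing the data, 3398 genes were called higher and 3349 lower. Testing against a log2 difference of 1 (limma treat) left 1409 higher and 778 lower. Without the treatment block, so with no pairing, 5249 genes were called higher and 6722 lower. Leaving out each treatment pair in turn gave 4323 to 5120 genes higher and 5412 to 6700 lower. The interaction called 0 genes with normexp too, with 1994 at an unadjusted p under 0.05. None of the 107 named genes reversed in a called difference under these alternatives. Dim signal limits the genes given as bounds.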

Other observations

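Genes were divided by mean signal into 4 groups of 4885 or 4886. The dimmest group held 1201 of the 2206 genes higher in set 1 by at least 2-fold and 499 of the 1578 lower by at least 2-fold. The brightest group held 153 higher and 266 lower.

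Between treatments, 3882 genes were called higher in set 1 both in the control arrays alone and in all arrays, and 2903 in both the control arrays alone and the Ecrg4 arrays alone. The matching numbers for genes lower in set 1 were 5161 and 2959. The control arrays alone called 4194 higher and 5609 lower, and the Ecrg4 arrays alone called 3398 and 3349.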
